A study of Carica papaya with 7 samples.

Results

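The genes described here encode enzymes of glycolysis and of the tricarboxylic acid (TCA) cycle in papaya pulp. They are 10 probe sets, 1 for each gene, of the 22746 gene probe sets of the Affymetrix ATH1 GeneChip, a microarray whose probes were designed for Arabidopsis. They were chosen by gene symbol or Arabidopsis gene identifier. The platform annotation named 9 of them, and enolase (AT2G36530) was named through a gene table of the study. Of these genes 5 belong to glycolysis (TPI, GAPC2, AT2G36530, AT5G56350 and AT5G08570) and 5 to the TCA cycle (AT5G65750, AT5G08300, AT5G23250, AT2G20420 and SDH1-1).

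The chip was hybridized with labelled RNA from pulp of the cultivar 'Golden' at 2 stages, unripe and ripe, so that the same Arabidopsis probes read papaya transcripts at both stages. All fruit were picked around the change of skin colour, the ripe group being fruit that had ripened after harvest, and peel and seeds were taken off before the pulp was frozen. There are 3 unripe and 3 ripe samples, each made of 12 fruits. 1 replicate of each stage came from a harvest in 2007 and the others from 2010, and the study told the stages apart by the CO2 and ethylene that the fruit gave off and by the firmness of the pulp. Those measurements and the hybridization with genomic DNA were not analysed here.

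Glycolysis splits sugar phosphates into triose phosphates and turns them into pyruvate in the cytosol, with a gain of ATP and NADH. In the mitochondria the pyruvate dehydrogenase complex and the TCA cycle oxidize pyruvate to CO2 and pass the electrons to the respiratory chain. Papaya is a climacteric fruit, in which respiration rises to a peak as ripening begins, and the sugars and organic acids that feed these enzymes also set the taste of the pulp.

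The columns deposited for the samples of a stage do not vary independently. In both stages, column 2 equalled column 1 multiplied by 1.19, and column 3 equalled their average. This held at every probe set to within 0.0011 signal units, the rounding of the table. The stages were therefore compared as 1 set of values each, without SD and without p-values, and every difference below describes these deposited values and has no replicate check. Differences are given as ripe minus unripe, on averages of log2 signals over the columns of a stage. Signals are RMA intensities on a linear scale in arbitrary units, with a median of 4.21 in both stages. A papaya transcript binds the probes only as far as its sequence matches that of Arabidopsis, and may bind those of several related genes, so that the signals of different genes were not compared as levels of their transcripts.

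In ripe pulp 8 of the 10 genes had higher signals than in unripe pulp and 2 had lower ones, against 48.4% of all probe sets that were higher. Their median log2 difference was 0.17, where that of all probe sets was -0.0047. The 10 genes were chosen with earlier results of these data known, so that the count and the median describe them and are no test. Without unripe replicate 1 or ripe replicate 2, 8 genes were still higher but the median was 0.10, beside -0.068 and -0.066 over all probe sets. Of all probe sets 32.6% and 33% were then higher. Past the fold limit that the study used, a log2 difference of 0.32 either way, 1 gene was higher, the succinyl-CoA ligase alpha subunit AT5G08300, and 1 was lower, the pyruvate kinase AT5G08570. Of all probe sets 3.57% were higher and 3.53% lower by as much. In these 2 genes the columns of the stages did not overlap, as in 7.04% of all probe sets on the higher side and 7.47% on the lower, and in the other 8 they overlapped. Since the columns differ by a fixed factor, whether they overlap follows from the difference itself: beyond 0.25 on the log2 scale they cannot, so that overlap, given below for each gene, adds nothing to the difference. With the columns scaled to the bacterial hybridization controls bioB, bioC and bioD instead, all 10 genes were higher, with a median of 0.77, but so were 99.8% of all probe sets, with a median of 0.60, and the count is no result about these genes. In pulp, a mixture of cell types, fewer cells of a type and less RNA per cell cannot be told apart.

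**Figure D1:**
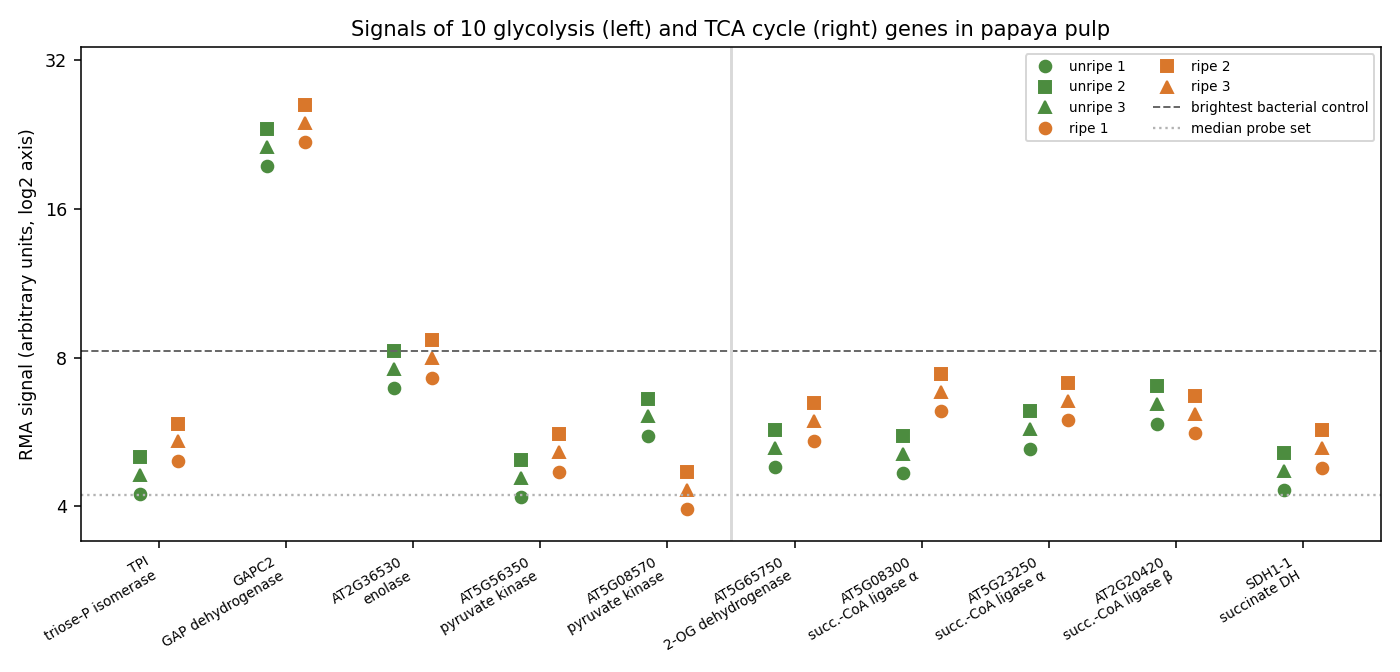
Signal of each of the 10 genes (log2 axis, arbitrary units) in the unripe (green) and ripe (orange) columns, with glycolysis on the left and the TCA cycle on the right, and 1 point for each column. The dashed line marks the brightest bacterial control at 8.24 and the dotted line the median probe set at 4.21. The columns of AT5G08570 are lower and those of AT5G08300 higher in ripe pulp without overlap, and GAPC2 alone lies above the dashed line in all columns.

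How far a signal stands out from the background of the chip was read from 27 control probe sets for Bacillus subtilis transcripts, which match no plant gene. The brightest of them had a signal of 8.24, and their median was 3.10. The mean signals of all 10 genes lay above the median probe set in both stages, the lowest at 4.32, but GAPC2 alone was brighter than the brightest of these controls, as were 10.5% of all probe sets in at least 1 stage. Between the stages these controls differed by log2 values from -0.28 to 0.12. Of the 10 genes 7 were higher and 1 was lower by more than that range, and 2, enolase and the gene AT2G20420 for a succinyl-CoA ligase beta subunit, lay within it. Of all probe sets 22.5% lay above the range and 5.38% below it.

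Triose phosphate isomerase, which interconverts the 2 triose phosphates so that both can be used in glycolysis, was represented by TPI. Its signals were 4.23, 5.03 and 4.63 in the unripe columns 1, 2 and 3 and 4.94, 5.88 and 5.41 in the ripe ones. Each ripe column was above the unripe column of its number, but the lowest ripe value lay below the highest unripe one. The log2 difference of TPI was 0.22, higher than that of 91.0% of all probe sets.

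GAPC2 encodes the cytosolic glyceraldehyde-3-phosphate dehydrogenase, the enzyme that yields the NADH of glycolysis. The signals of GAPC2 were 19.5, 23.2 and 21.4 at the unripe stage and 21.8, 26.0 and 23.9 at the ripe stage, with overlapping columns and a log2 difference of 0.16, which is 1.12 fold. The chip carries 3 further probe sets for Arabidopsis GAPDH as controls, which read the 3′ end, the middle and the 5′ end of the transcript. The 3′ control, with signals of 2.71 and 2.41, lay below the median bacterial control in both stages, and the 5′ control, with 3.71 and 5.20, below the brightest. Their differences of -0.17 and 0.49 thus come from signals within the background. The 0.49 of the 5′ control exceeded the 0.42 of AT5G08300, the highest of the 10 genes. All of the 10 genes except GAPC2 likewise had signals below the brightest bacterial control. The middle one, with 9.07 and 8.52, was above it and differed by -0.090, or above 0 on the bioB, bioC and bioD scale. The part of RNA quality in the differences of the 10 genes was not tested.

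Enolase, which forms phosphoenolpyruvate from 2-phosphoglycerate, was among the genes that the study also followed by quantitative PCR. The primers are printed because they are the papaya sequence that the study used for this gene, as opposed to the Arabidopsis probes of the chip. Written from 5′ to 3′, with the last 5 bases, where extension starts, in capitals, they are:
enol_f: gtgctcccagtcatcTTGGT
enol_r: tggtgaagctctcaaGGATC
Both are 20 bases long, and they hold 55% and 50% of G and C. The PCR values were not analysed here.

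On the chip, enolase (AT2G36530) gave signals of 6.94, 8.26 and 7.60 in the unripe columns and 7.29, 8.67 and 7.98 in the ripe columns. These overlap almost completely. The log2 difference of 0.071 was the smallest among the genes with higher signals and lay within the range of the bacterial controls. ENOC, the probe set of another enolase gene, was at -0.052 and changed sign when scaled to the cre controls or to bioB, bioC and bioD. The study selected enolase and AT5G08300 on these samples, so that their directions are not independent evidence. For both genes the study printed larger increases than the differences given here, after it had filtered the probes by its genomic DNA hybridization.

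Pyruvate kinase closes glycolysis by moving the phosphate of phosphoenolpyruvate to ADP. Of its genes, 2 are among the 10, and they differed in opposite directions. For AT5G56350 the unripe columns read 4.17, 4.96 and 4.57 and the ripe columns 4.70, 5.59 and 5.14, which overlap and differ by 0.17 on the log2 scale. The signals of AT5G08570 were 5.55, 6.61 and 6.08 before ripening and 3.94, 4.69 and 4.32 after it. Here every ripe column was below every unripe column. AT5G08570 was lower in ripe pulp by 1.41 fold, at a log2 difference of -0.49, or 0.11 on the bioB, bioC and bioD scale, and 0.615% of all probe sets had a lower value.

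The E1 subunit of 2-oxoglutarate dehydrogenase carries out the decarboxylation of 2-oxoglutarate, a step of the TCA cycle that releases CO2. Its gene AT5G65750 had signals of 4.79, 5.70 and 5.25 in the unripe columns and 5.43, 6.46 and 5.94 in the ripe columns. The stages overlapped between the highest unripe and the lowest ripe column, and the log2 difference was 0.18, which is 1.13 fold.

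Succinyl-CoA ligase, the enzyme that couples the cleavage of succinyl-CoA to the synthesis of a nucleoside triphosphate, consists of an alpha and a beta subunit, and 3 of its genes were measured. For the alpha subunit gene AT5G08300 the signals were 4.66, 5.55 and 5.11 in unripe and 6.22, 7.40 and 6.81 in ripe pulp. All ripe columns were above all unripe ones, and the log2 difference of 0.42 (1.33 fold) was higher than that of 98.7% of all probe sets. The second alpha subunit gene, AT5G23250, read 5.23, 6.22 and 5.73 in unripe and 5.97, 7.10 and 6.53 in ripe pulp, and differed by 0.19 with overlapping columns. The beta subunit gene AT2G20420 read 5.88, 6.99 and 6.43 at the unripe stage and 5.63, 6.69 and 6.16 at the ripe stage. Its log2 difference of -0.063 changed sign when ripe replicate 1 was left out (0.0010) and on the bioB, bioC and bioD scale (0.54). Both alpha subunit genes thus had higher signals in ripe pulp, by more than the bacterial controls, and the beta subunit gene lay within the range of those controls.

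SDH1-1 encodes the flavoprotein subunit of succinate dehydrogenase, which oxidizes succinate to fumarate and is at the same time complex II of the respiratory chain. The signals of SDH1-1 were 4.31, 5.13 and 4.72 in the unripe columns and 4.78, 5.69 and 5.24 in the ripe ones. Its columns overlapped, and the log2 difference was 0.15.

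**Figure D2:**
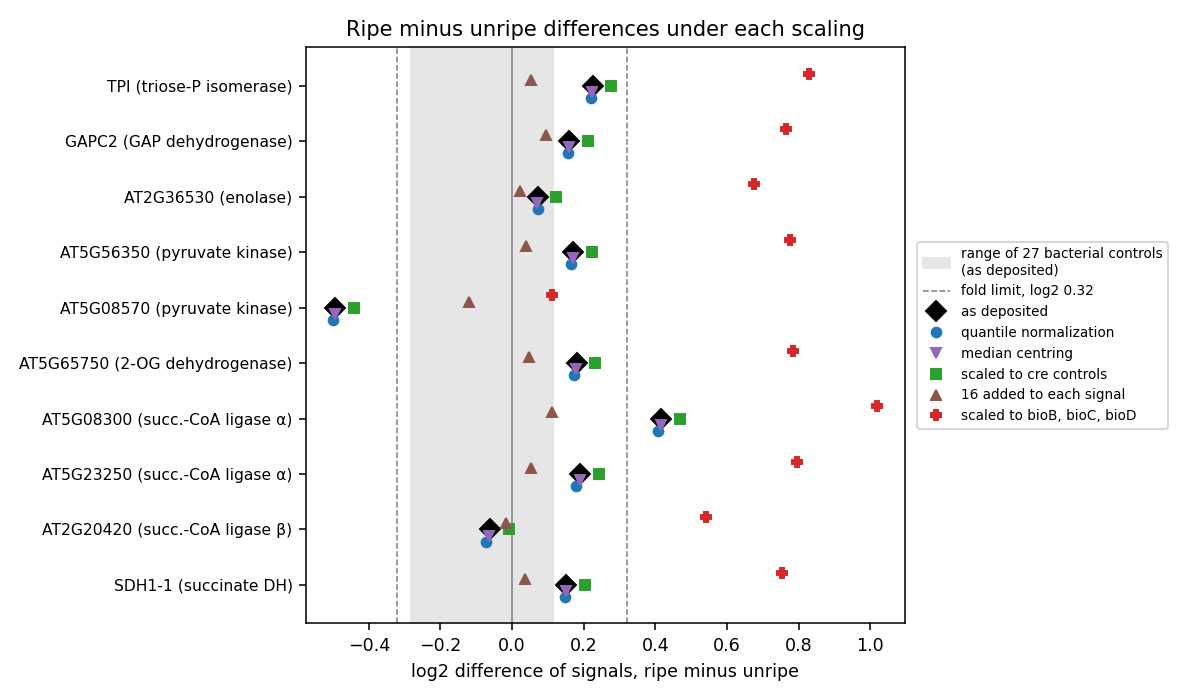
Log2 difference (ripe minus unripe) of each of the 10 genes in the deposited signals (black diamonds) and under 5 other scalings, with the range of the 27 bacterial controls in grey (-0.28 to 0.12) and the fold limit (0.32) as dashed lines. Quantile normalization and median centring nearly coincide with the deposited values, adding 16 draws all genes toward 0, and scaling to bioB, bioC and bioD moves all of them to the right by 0.60.

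**Figure D3:**
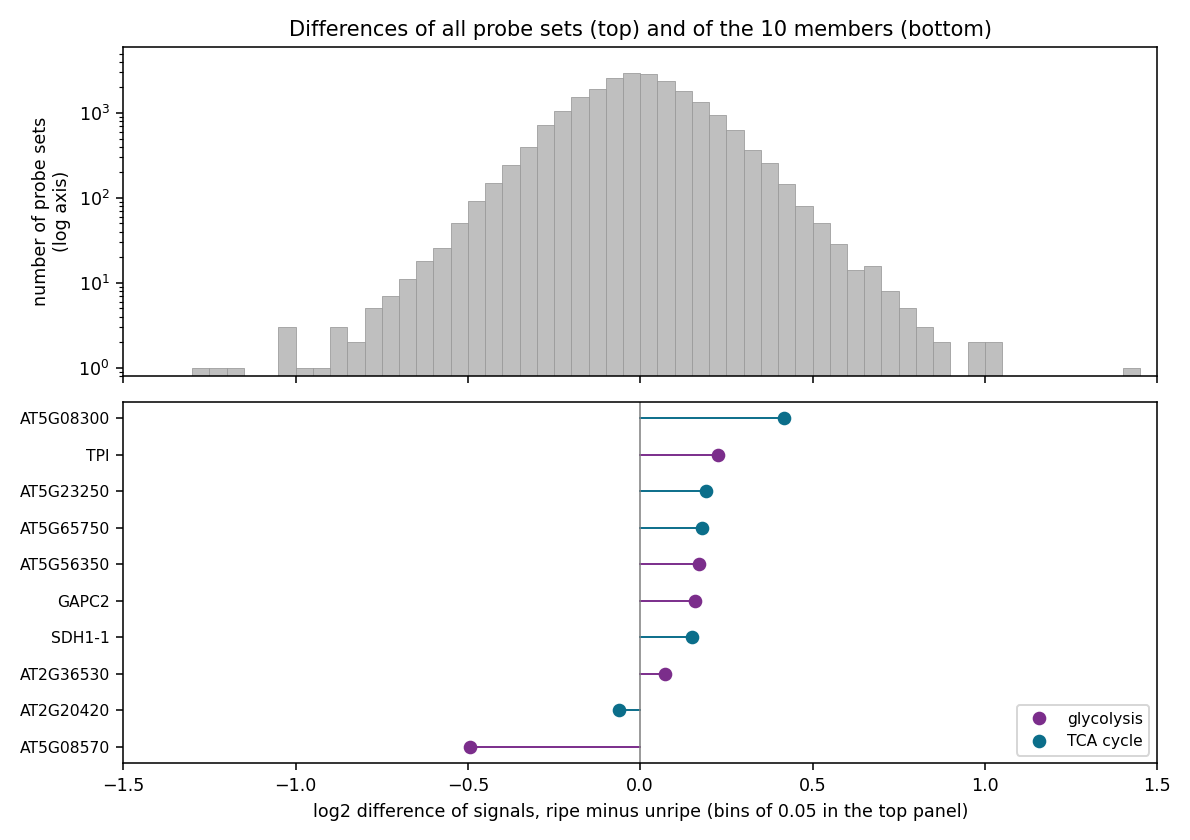
Top, number of probe sets (log axis) by log2 difference, ripe minus unripe, in bins of 0.05 over all 22746 probe sets. Bottom, the 10 genes in the order of their differences, each line running from 0. AT5G08570 at -0.49 and AT5G08300 at 0.42 lie in the sparse flanks, and 6 genes lie close together between 0.15 and 0.22.

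These directions depend in part on the scale on which the stages are set equal. The deposited table has nearly the same median in both stages. The hybridization controls added to each sample differ from it: bioB, bioC and bioD, with 14 probe sets, lay at a median of -0.60 between the stages, and cre, with 4, at -0.053. The sign of AT5G08570 and of AT2G20420 turned on the bioB, bioC and bioD scale, and 9 of the 10 genes were then higher past the fold limit, as were 94.6% of all probe sets. Scaled to cre, all 10 kept their sign and 1 gene was past the fold limit on each side. With 16 added to each signal the differences shrank to between -0.12 and 0.11, and no gene remained past the fold limit.

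To see more of both pathways, those of their Arabidopsis genes that could be matched to a probe set of their own were read in the same way. Several steps had no such probe set. In glycolysis these were hexokinase, aldolase and phosphoglycerate mutase. The TCA cycle list had none for citrate synthase, aconitase, fumarase or malate dehydrogenase. Of 64 genes of glycolysis, the 5 described above included, 23 were matched, and 13 probe sets were higher in ripe pulp and 10 lower, with a median log2 difference of 0.071. Of all probe sets 48.4% were higher. The counts became 15 and 8 when scaled to cre, where 62.1% of all probe sets were higher, and 23 and 0 on the bioB, bioC and bioD scale, where 99.8% were. Without unripe replicate 1 or ripe replicate 2 the counts were 12 and 11, with medians of 0.0073 and 0.0091. Of all probe sets 32.6% and 33% were then higher. Without unripe replicate 2 or ripe replicate 1 the counts were 15 and 8, with medians of 0.13, where 64.4% and 64.9% of all probe sets were higher. Without the 5 genes described above, 9 of 18 probe sets were higher and 9 lower, with a median of 0.0064. Past the fold limit, 2 of the 23 were higher and 1, AT5G08570, was lower, beside 3.57% and 3.53% of all probe sets. The 2 were the fructokinase AT4G10260, whose signal was 4.06 before and 5.51 after ripening (log2 difference 0.44), and ALDH11A3, a non-phosphorylating glyceraldehyde-3-phosphate dehydrogenase that yields NADPH, at 3.82 before and 4.89 after (0.36).

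Of 7 pyruvate kinase probe sets 3 were higher and 4 lower, beside 48.4% of all probe sets higher. Their differences ran from -0.49 to 0.21 with a median of -0.085. All 7 were higher on the bioB, bioC and bioD scale, as were 99.8% of all probe sets. AT5G08570 lay at the lower end of this range and AT5G56350 near its upper end. AT4G26390, the single pyruvate kinase probe set brighter than the bacterial controls in either stage, was so in unripe pulp only, with 9.47 before and 8.04 after ripening, with a log2 difference of -0.24, or above 0 on the bioB, bioC and bioD scale. Fructokinase, through which fructose enters the pathway, had 4 of 6 probe sets higher, beside 48.4% of all probe sets. The probe sets listed under phosphofructokinase were those of AT1G20950, AT1G12000 and AT1G76550 only, at log2 differences of 0.21, 0.27 and -0.28. Whether these genes encode subunits of the ATP-dependent enzyme or of another form was not examined. On the bioB, bioC and bioD scale all probe sets of both groups were higher, as were 99.8% of all probe sets.

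The matched part of the TCA cycle ran from isocitrate dehydrogenase to succinate dehydrogenase only. It had 15 of 19 probe sets, from 18 of 38 genes, higher in ripe pulp and 4 lower, at a median log2 difference of 0.069. Of all probe sets 48.4% were higher. The counts were 16 and 3 when scaled to cre and 19 and 0 on the bioB, bioC and bioD scale, where 62.1% and 99.8% of all probe sets were higher. They were 10 and 9 without unripe replicate 1, where 32.6% of all probe sets were higher, and without ripe replicate 2, where 33% were, with medians of 0.0053 and 0.0071. The medians were 0.13 without unripe replicate 2 and without ripe replicate 1. Without the 5 genes described above, 11 of 14 were higher, with a median of 0.049, and leaving out unripe replicate 1 or ripe replicate 2 turned this to 6 higher and 8 lower, with medians of -0.014 and -0.013. Past the fold limit, 3 were higher and none lower, beside 3.57% and 3.53% of all probe sets. The 3 were AT5G08300, AT4G26910 and cICDH. AT4G26910, an E2 subunit gene of 2-oxoglutarate dehydrogenase, had signals of 5.01 before and 6.42 after ripening (log2 difference 0.36). For cICDH, the cytosolic NADP-dependent isocitrate dehydrogenase, which acts outside the mitochondrial cycle, they were 7.42 and 9.49 (difference 0.36). In ripe pulp cICDH was brighter than the bacterial controls.

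Around AT5G65750, the 2-oxoglutarate dehydrogenase probe sets numbered 4, of which 3 were higher, beside 48.4% of all probe sets. The second E2 gene, AT5G55070, is well above the bacterial controls, with a signal of 24.6 at the unripe and 23.2 at the ripe stage, and lay at -0.083, or on the higher side on the bioB, bioC and bioD scale. Around SDH1-1, 4 of 5 succinate dehydrogenase probe sets were higher, both probe sets of SDH2-1 among them, beside 48.4% of all probe sets. The 5 ranged from -0.043 to 0.15, and SDH1-1 had the highest difference of these 5. Of the 5, 4 lay within the range of the bacterial controls. The probe set that was lower, SDH1-2, is of the other flavoprotein gene and turned higher when scaled to cre or to bioB, bioC and bioD. Isocitrate dehydrogenase, with cICDH, ICDH and AT5G14590 counted, had 6 of 7 probe sets higher, at a median of 0.036, beside 48.4% of all probe sets higher. ICDH was at 0.098 and AT5G14590 at 0.036, and whether these genes act in the mitochondrial cycle was not examined. Of these 7, 6 lay within the range of the bacterial controls. IDH-III, IDH-IV, IDH-V and IDH-VI were at -0.12, 0.032, 0.020 and 0.11.

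Between both pathways stands the pyruvate dehydrogenase complex, which turns pyruvate into acetyl-CoA and releases CO2. It had 6 probe sets from 15 genes, 4 higher and 2 lower, with a median of 0.063, beside 48.4% of all probe sets higher. On the bioB, bioC and bioD scale all 6 were higher, as were 99.8% of all probe sets. There were 3 on each side without unripe replicate 1 (median -0.00052) or ripe replicate 2 (0.0013). Of all probe sets 32.6% and 33% were then higher. The median was 0.12 without unripe replicate 2 and 0.13 without ripe replicate 1, where 64.4% and 64.9% of all were higher. The E3 gene AT4G16155, at 4.81 before and 6.92 after ripening, differed by 0.53 on the log2 scale, and the E1 beta gene AT2G34590, with 7.36 and 9.70, by 0.40. Both encode subunits of the plastid complex, which feeds fatty acid synthesis, and not of the mitochondrial one. Of the mitochondrial complex, the E1 beta gene MAB1, above the bacterial controls with signals of 30.4 and 32.4, was at 0.095. Its E2 gene AT1G54220 was at 0.032, with signals of 3.97 and 4.06. Another E2 gene, AT3G13930, was at -0.18, with signals of 5.44 and 4.79, and the E2 gene LTA3 was at -0.14, with 3.93 and 3.56. Both had a higher value in ripe pulp on the bioB, bioC and bioD scale.

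**Figure D4:**
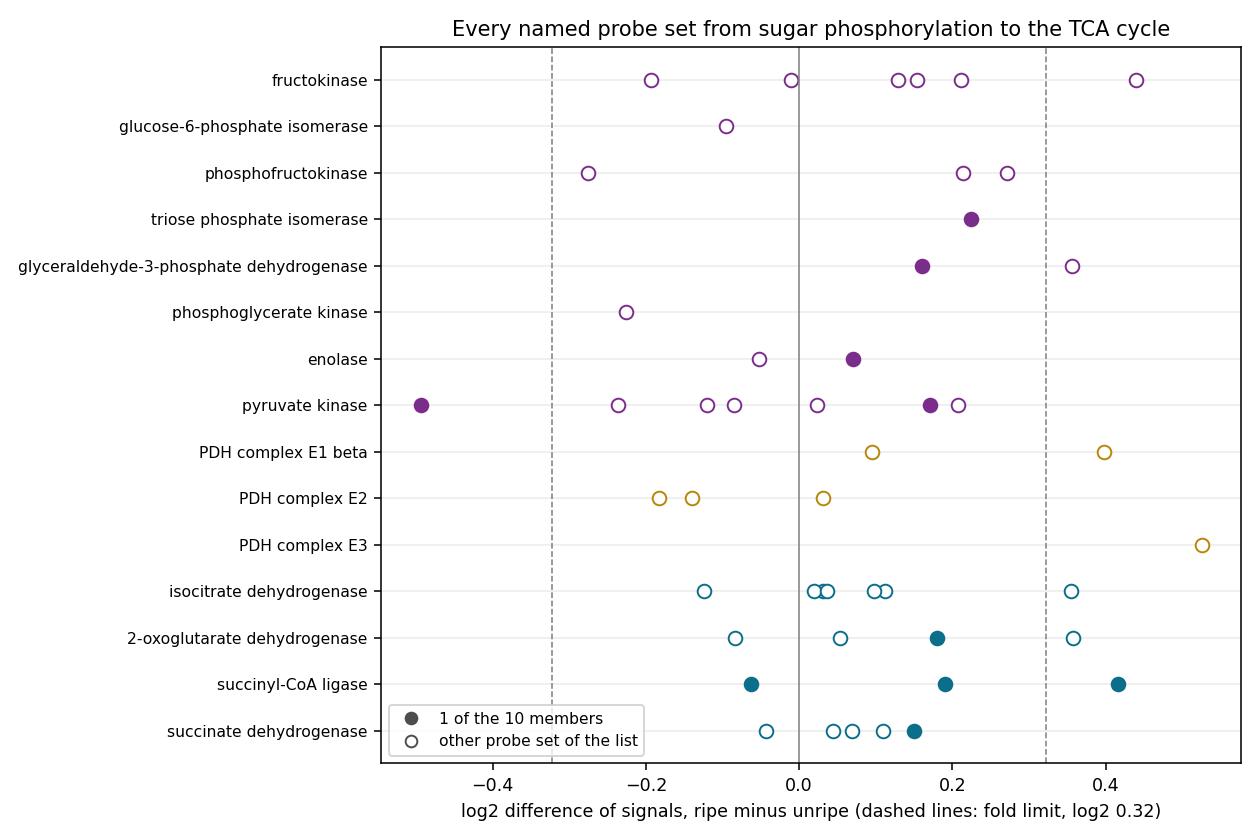
Log2 difference (ripe minus unripe) of each named probe set by enzyme, from fructokinase down to succinate dehydrogenase, with filled points for the 10 genes and open points for the other probe sets of glycolysis (purple), the pyruvate dehydrogenase complex (gold) and the TCA cycle (blue), and the fold limit (0.32) as dashed lines. Pyruvate kinase spreads over both sides of 0, from -0.49 to 0.21, and the succinate dehydrogenase points stay between -0.043 and 0.15.

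Markers of the tissues taken off before freezing were measured by 1 probe set each. Of 10 seed genes OLEO3, an oleosin of seed oil bodies, had a signal of 4.95 before and 6.06 after ripening (log2 difference 0.29). Of 14 genes of green peel LHCB4.1, a light-harvesting protein, was at 4.75 and 3.85 (-0.30), or a higher value in ripe pulp on the bioB, bioC and bioD scale. Neither was brighter than the bacterial controls, and their part in the differences of the 10 genes was not tested.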

How the data were processed

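Total RNA of papaya pulp was hybridized to the ATH1 GeneChip. The deposited values are intensities (signals per probe set on a linear scale), which the authors made with MAS 5.0 and RMA in GeneSpring 7.2. Whether they include the normalization against genomic DNA and the probe masks that the record of the series names is not stated. 1 column, that of the genomic DNA array, was not used. The titles of the samples gave the stage.

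Log2 was taken of each signal after a floor of 1, and counts leave out the 64 controls of the chip. A single gene symbol was given by the platform annotation for 13523 probe sets, several for 493 and none for 8730, and shared probe sets were not named. The planned limma fit was not run, since the columns of a stage are proportional and carry no spread; arrays give no depth, and 1 set of values per stage limits the precision.

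The 10 genes and the 8 gene lists (174 genes, 6 of pathways and 2 of markers) were chosen with earlier results of these data known. All 10 genes are named, and of each list the 3 probe sets with the largest difference. Other probe sets of the same enzymes and of the pyruvate dehydrogenase complex were added after their values had been seen. Alternatives were quantile normalization, median centring, scaling to cre or to bioB, bioC and bioD, a pseudocount of 16, the ratio of linear means, a filter at the median signal and leaving out each column. Leaving out a replicate number in both stages was tried as well, as an alternative chosen after seeing the data. The script was tested on simulated differences. Python 3.11.15, numpy 2.4.6, pandas 2.3.3 and matplotlib 3.10.9 were used.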

Additional observations from a re-analysis of the deposited data

How the results depend on the processing

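The count of genes with higher signals in ripe pulp stayed at 8 of 10 under quantile normalization, median centring, scaling to cre, 16 added to each signal and the ratio of mean linear signals. Of all probe sets 50.3%, 47.9%, 62.1%, 48.4% and 48.4% were higher, in that order. The count was 10 on the bioB, bioC and bioD scale, where 99.8% of all probe sets were higher. There the median log2 difference moved from 0.17 to 0.77 and AT5G08570 turned from -0.49 to 0.11. Leaving out single columns gave counts of 8 to 9, medians of 0.10 to 0.23 and values of AT5G08570 from -0.56 to -0.43. The share of all probe sets that were higher then ran from 32.6% to 64.9%. Leaving out a column shifted a difference by 0.064 at most, because the columns of a stage differ by a constant factor. AT5G08300 and AT5G08570 stayed past the fold limit. Leaving out the same replicate number in both stages shifted no sign, which follows from the proportional columns and is no sign of stability.

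Of all probe sets, 812 were higher and 804 lower past the fold limit. The counts became 21525 and 8 on the bioB, bioC and bioD scale, 1359 and 487 when scaled to cre, and 17 and 30 with 16 added to each signal. Without single columns they ranged from 418 to 1498 and from 433 to 1569: 418 and 1569 without unripe replicate 1, 1478 and 445 without unripe replicate 2, 1498 and 433 without ripe replicate 1, and 427 and 1528 without ripe replicate 2. With the median of the Bacillus subtilis controls, 3.10, as the limit in place of the brightest, all 10 genes and not 1 stood above it. The median probe set, at 4.21 in both stages, lies above this limit as well, so that the count is no result about these genes. No paired analysis was possible because the columns of a stage are multiples of each other, so that no replicate block can be fitted.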

Other observations

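The reactions next to both pathways were sparsely measured. Of 6 fermentation genes, which turn pyruvate into lactate or ethanol, 2 had a probe set of their own. The lactate dehydrogenase gene AT4G17260 was at 4.91 before and 5.63 after ripening (log2 difference 0.20), and PDC2, of pyruvate decarboxylase, at 4.44 and 4.26 (-0.057). Of 9 genes of terminal oxidation, the cytochrome c genes CYTC-1 and CYTC-2 were at 0.071 and -0.065, with signals of 3.87 and 4.07 and of 9.45 and 9.03. PDC2 and CYTC-2 were higher in ripe pulp on the bioB, bioC and bioD scale. Of 18 genes for the entry and exit of organic acids, MDH, a malate dehydrogenase, was at 0.087, with signals of 9.60 and 10.2. None of these probe sets was past the fold limit in either direction, beside 3.57% of all probe sets higher and 3.53% lower.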
